A study of Mus musculus with 6 samples.

Results

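The genes 6430548M08Rik, Pam, Cdc42bpa, Arhgap26, Iscu and Atxn1 were followed transcript by transcript in ribosome-associated RNA of Ctrl and Gsk3sKO in mPFC D2 mice. They were selected on measured values of this same comparison, because at least 1 transcript of each was higher and at least 1 was lower in Gsk3sKO, so their values are given as a description without a test. They are 6 of the 47593 gene names in the deposited table, and they hold 67 of its 115220 transcripts. Of these 67 transcripts, 61 were above 0 in at least 1 library, 6 were listed at 0 in all 6 libraries and 30 had a mean FPKM of at least 1. FPKM is the number of fragments assigned to a transcript after division by its length in kilobases and by the sequencing depth.

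The study asked how the loss of GSK3β, a kinase downstream of the dopamine D2 receptor, alters the RNA on the ribosomes of D2 neurons in the medial prefrontal cortex (mPFC). All libraries came from adult male D2Cre/LSL-Flag-Cas9/RiboTag mice on the C57BL/6 strain, in which a bacterial artificial chromosome transgene drives Cre, and Cre turns on both Flag-tagged Cas9 and a hemagglutinin tag on the ribosomal protein Rpl22. The 3 Ctrl libraries came from mice given AAV GFP, which carries no sgRNA, and the 3 Gsk3sKO libraries from mice given AAV Gsk3sgRNA/GFP, both injected into the mPFC and collected 3 weeks later. RNA bound to tagged ribosomes was pulled down and sequenced with a stranded total RNA kit. Ctrl and Gsk3sKO thus shared the Cre, Cas9 and tag and differed in the sgRNA. Neither the labels nor the text read here says whether a library is 1 mouse or a pool, so a p-value here reflects how these libraries vary, and that variation may be technical alone.

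A gene can give several RNAs, because exons can be joined in different ways and transcription can start or end at different places. A switch between transcripts can change the protein, through the coding exons, or only the untranslated ends, which bear on translation, stability and localization. The 6 genes act in different parts of the neuron. Pam makes the enzyme that amidates neuropeptides in secretory granules, Cdc42bpa and Arhgap26 act in signaling by small GTPases that shape the cytoskeleton, Iscu is the scaffold on which mitochondrial iron-sulfur clusters are built, Atxn1 encodes a polyglutamine protein that acts in transcriptional repression, and 6430548M08Rik is a protein-coding gene still known by its clone name.

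For 5 of the genes, a short coding stretch is shown that 1 transcript of the gene holds and another lacks. The share of FPKM in transcripts that hold the stretch did not overlap between the groups for 6430548M08Rik, Cdc42bpa and Iscu. It overlapped for Pam and Atxn1, so there the stretch does not mark a difference between the groups. In Iscu the coding sequences differ more widely, since Iscu-205 also lacks the coding start of Iscu-201 and its coding part ends earlier. The exon sequence is from the GENCODE M21 transcripts (GRCm38), 5′ to 3′ on the strand of the gene, with the distinguishing block in capitals and 21 bases of the neighboring exon in lower case on each side where the transcript extends there.
6430548M08Rik-201: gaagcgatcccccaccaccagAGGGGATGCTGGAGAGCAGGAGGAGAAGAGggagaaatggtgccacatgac
Pam-201: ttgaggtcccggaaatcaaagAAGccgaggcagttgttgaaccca
Pam-202: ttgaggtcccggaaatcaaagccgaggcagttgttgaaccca
Cdc42bpa-204: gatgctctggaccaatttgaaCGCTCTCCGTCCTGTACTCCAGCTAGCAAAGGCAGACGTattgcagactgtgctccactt
Iscu-205: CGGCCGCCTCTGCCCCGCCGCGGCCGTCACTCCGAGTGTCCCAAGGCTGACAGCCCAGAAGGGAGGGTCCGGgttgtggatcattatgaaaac
Atxn1-203: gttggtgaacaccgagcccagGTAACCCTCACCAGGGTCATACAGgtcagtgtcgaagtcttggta
The block of 6430548M08Rik-201 is exon 10 of 13, at chr8:120157468-120157497 on the plus strand, and 6430548M08Rik-204 skips it. The 3 bases of Pam-201 lie at the start of its exon 24, at chr1:97826038-97826040 on the minus strand, and Pam-202 joins the flanks without them. The block of Cdc42bpa-204 is exon 22 of 37, at chr1:180123924-180123962 on the plus strand. The block of Iscu-205 is its first exon, at chr5:113773025-113773096 on the plus strand, which lies inside an intron of Iscu-201. The 24 bases of Atxn1-203 lie in its exon 7, at chr13:45566549-45566572 on the minus strand. All 5 blocks are annotated as coding, and all have a length that is a multiple of 3.

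The targeted gene Gsk3b was lower in its main transcript, Gsk3b-201, at 33.5, 34.7 and 36.2 FPKM in Ctrl and 24.8, 21.6 and 21.2 FPKM in Gsk3sKO (log2 fold change -0.61 ± 0.14 SE, adjusted p = 0.619 in limma). The Gsk3b total over all its transcripts overlapped between the groups, at 35.6, 53.8 and 56.5 FPKM in Ctrl and 36.9, 37.0 and 33.6 FPKM in Gsk3sKO (log2 fold change -0.40 ± 0.19 SE, adjusted p = 0.769 in limma). Its RNA level counts edited and unedited copies together. Across the libraries 40787 to 55841 transcripts were above 0. Pearson's r between libraries was 0.908 to 0.965, lowest for pairs with Ctrl replicate 1 or Gsk3sKO replicate 3. It was 0.931 to 0.960 within Ctrl and 0.930 to 0.952 within Gsk3sKO. The highest value was between groups, for Ctrl replicate 3 with Gsk3sKO replicate 1, so gene totals did not set the groups apart as a whole. Drd2, which defines the tagged cells, was at 1.58, 6.02 and 14.1 FPKM in Ctrl and 8.32, 5.96 and 7.28 FPKM in Gsk3sKO. Over all libraries the 4 excitatory markers summed to 827 to 1030 FPKM and the 6 inhibitory markers to 935 to 1320 FPKM. The 7 astrocyte markers summed to 150 to 199 FPKM and the 6 endothelial markers to 16.2 to 62.7 FPKM. No marker in any list was at 0 in all libraries. The 7 microglia markers summed to 22.4 to 34.5 FPKM in Ctrl and 16.4 to 22.1 FPKM in Gsk3sKO, which did not overlap, and 2 of them were lower at an unadjusted limma p under 0.05, a call that 5.25% of all gene totals met. Of the 7 oligodendrocyte markers 3 were lower by the same call, with sums of 126 to 190 FPKM and 142 to 180 FPKM that overlapped, and of the 4 excitatory markers 1 was lower. The part of these markers in the values below was not tested. In pull-downs made from many cells at once, fewer cells of a type and less RNA per cell cannot be told apart.

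**Figure D1:**
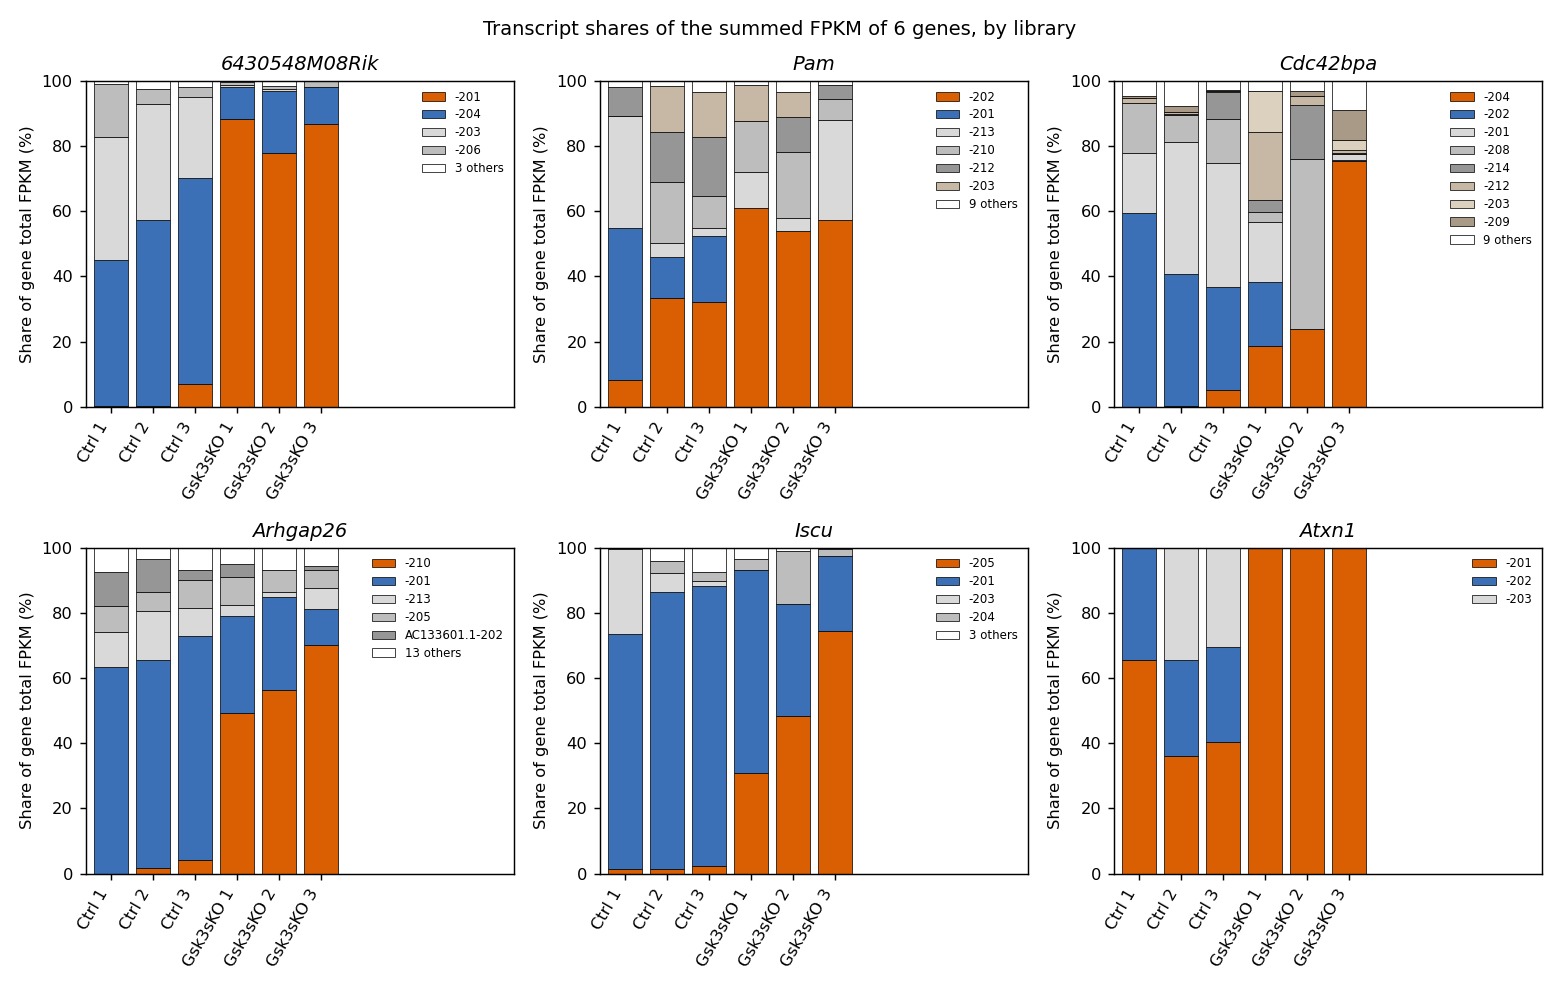
Share of each transcript in the summed FPKM of its gene (y axis, percent) in the 3 Ctrl and 3 Gsk3sKO libraries (x axis), with 1 panel per gene. Orange is the transcript with the largest rise of the mean share, blue the one with the largest fall, grey and brown the others whose mean FPKM reached 1, and white the rest summed. In each gene the orange share is higher in every Gsk3sKO library than in any Ctrl library, which the choice of that transcript favors.

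Before the genes are taken in turn, the size of the shift can be read from the transcript that led in each direction, called the rising and the falling transcript here. The mean share of the rising transcript went from 2.51% to 84.4% for 6430548M08Rik-201, from 24.7% to 57.5% for Pam-202 and from 1.80% to 39.4% for Cdc42bpa-204. It went from 1.97% to 58.6% for Arhgap26-210, from 1.74% to 51.1% for Iscu-205 and from 47.3% to 100% for Atxn1-201. The shares of these 6 transcripts did not overlap between the groups. The choice favored this, because each was picked for the largest rise in a gene chosen on this comparison, so nothing is read from it. Of the 30 transcripts whose mean FPKM reached 1, 5 were higher and 10 lower in Gsk3sKO at an unadjusted limma p under 0.05, where 5.56% of all 21584 tested transcripts had such a p, and nothing is read from this count because the transcripts were chosen on it. None of the 21584 had an adjusted p under 0.05 in limma, against 1200 at an unadjusted p under 0.05.

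Of the 6 genes, 6430548M08Rik had the largest rise in the mean share of a single transcript. Its transcript 6430548M08Rik-201 was at 0.229, 0.0951 and 5.45 FPKM in Ctrl and 81.4, 76.1 and 70.6 FPKM in Gsk3sKO. Every Gsk3sKO library lay above every Ctrl library (log2 fold change 5.23 ± 0.68 SE). The falling transcript 6430548M08Rik-204 was at 28.9, 38.2 and 48.9 FPKM in Ctrl and 8.78, 18.6 and 9.04 FPKM in Gsk3sKO (log2 fold change -1.64 ± 0.34 SE). A further coding transcript, 6430548M08Rik-203, went from 24.4, 23.9 and 19.2 FPKM to 0.573, 0.687 and 0 FPKM. The noncoding 6430548M08Rik-206 went from 10.6, 3.04 and 2.51 FPKM to 1.03, 0.86 and 1.61 FPKM. Of these transcripts, 3 were thus lower in every Gsk3sKO library and 1 was higher.

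Structure tells these transcripts apart to different degrees. 6430548M08Rik-201 and 6430548M08Rik-204 share 5531 bases, and the former differs only by the 30-base exon shown above and by 3 bases at its ends. 6430548M08Rik-201 and 6430548M08Rik-203 code for the same 1221 bases and differ in where they start and end, since the first starts at chr8:120114152 and the second at chr8:120144929. With both added, this coding sequence was at 24.6, 24.0 and 24.7 FPKM in Ctrl and 81.9, 76.8 and 70.6 FPKM in Gsk3sKO. The sum was thus higher in each Gsk3sKO library after the fall of 6430548M08Rik-203 was counted. In Gsk3sKO it was nearly all 6430548M08Rik-201, at 81.4, 76.1 and 70.6 FPKM. It therefore follows the rise of that transcript and is not separate evidence for it. Over all transcripts that hold or skip it, inclusion of the 30-base exon did not overlap between the groups. It was 54.9%, 41.4% and 35.7% of the FPKM in Ctrl and 90.4%, 80.7% and 88.9% in Gsk3sKO. This inclusion is computed from transcript FPKM and follows the same transcripts, since no reads were counted over the exon.

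Pam encodes the enzyme that turns glycine-extended peptides into amidated, active neuropeptides. Pam-202 was at 8.68, 38.4 and 37.2 FPKM in Ctrl and 65.9, 51.9 and 55.0 FPKM in Gsk3sKO. Pam-201 was at 48.8, 14.3 and 23.1 FPKM in Ctrl and was listed at 0 in all 3 Gsk3sKO libraries. Neither transcript overlapped between the groups, and Ctrl replicate 1 held the highest Pam-201 and the lowest Pam-202. The mean share of Pam-201 fell by 26.4 percentage points with all libraries and by 16.3 percentage points without Ctrl replicate 1.

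The pair differs by little: Pam-202 is 4102 bases long and Pam-201 4095 bases, and apart from the 3 coding bases shown above they differ by 11 bases at the 5′ end and 1 base at the 3′ end. Added together, the pair was at 57.4, 52.7 and 60.4 FPKM in Ctrl and 65.9, 51.9 and 55.0 FPKM in Gsk3sKO, and the groups overlapped. The 3 bases are also in Pam-210 and Pam-213, and their inclusion over all transcripts was 82.4%, 36.1% and 34.9% in Ctrl and 27.1%, 24.9% and 37.5% in Gsk3sKO. These groups also overlapped, so the swap between Pam-201 and Pam-202 was not matched by a separation in the only coding bases that distinguish them. Pam-210, which skips the 318-base exon 15, was at 0, 21.4 and 11.4 FPKM in Ctrl and 16.9, 19.5 and 6.00 FPKM in Gsk3sKO, and inclusion of that exon overlapped between the groups.

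Among the other Pam transcripts, those that averaged 1 FPKM or more overlapped between the groups. Pam-213, with a retained intron, was at 35.9, 5.04 and 2.81 FPKM in Ctrl and 11.9, 3.58 and 29.5 FPKM in Gsk3sKO. The partial models Pam-212 and Pam-203 ranged from 0 to 20.9 FPKM and from 0 to 16.2 FPKM over all libraries. The 9 remaining Pam transcripts each had a mean FPKM under 1 and stayed at or below 2.27 FPKM in every library.

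**Figure D2:**
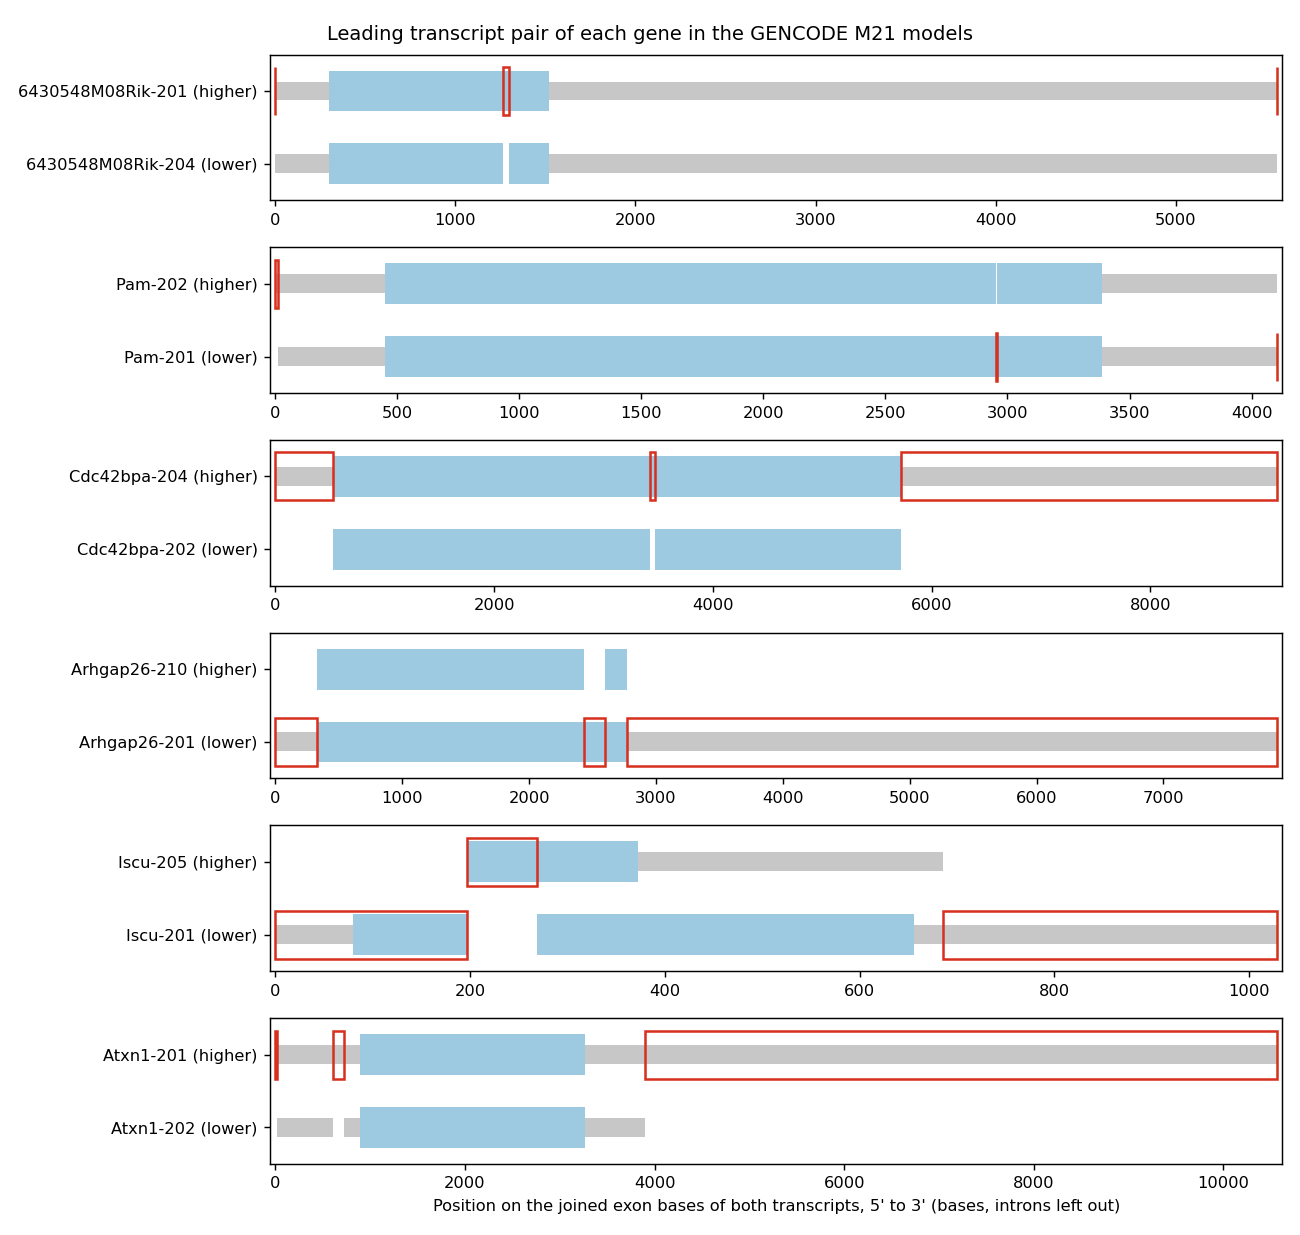
The rising (upper) and falling (lower) transcript of each gene drawn to scale on their joined exon bases, 5′ to 3′ (x axis, bases, introns left out). Tall blue bars are coding, low grey bars are untranslated, and red frames mark bases that only that transcript holds. The pairs of 6430548M08Rik and Pam share all but a few bases, and the other pairs differ mainly in their ends.

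Cdc42bpa encodes MRCKα, a kinase that binds active Cdc42 and promotes contraction of actin and myosin. Cdc42bpa-204 was at 0, 0.195 and 3.87 FPKM in Ctrl and 12.5, 20.2 and 40.9 FPKM in Gsk3sKO (log2 fold change 3.67 ± 0.72 SE). Cdc42bpa-202 was at 35.0, 27.5 and 24.2 FPKM in Ctrl and 13.1, 0 and 0.08 FPKM in Gsk3sKO (log2 fold change -3.58 ± 1.02 SE). Neither overlapped between the groups, but the Gsk3sKO libraries were far from alike. The share of Cdc42bpa-204 was 18.7%, 23.8% and 75.6% in Gsk3sKO, and its mean share rose by 37.6 percentage points with all libraries and by 19.5 percentage points without Gsk3sKO replicate 3.

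Cdc42bpa-202 and Cdc42bpa-201 are annotated from start codon to stop codon only, whereas Cdc42bpa-204 has a 5′ untranslated end of 525 bases and 3437 bases of 3′ untranslated end that they lack. The summed FPKM over those 3437 bases, averaged along them over all transcripts that reach in, was 0.885, 0.647 and 4.07 in Ctrl and 28.8, 22.7 and 41.9 in Gsk3sKO. Inclusion of the 39-base coding exon was 0.470%, 1.63% and 7.11% in Ctrl and 20.0%, 55.0% and 83.5% in Gsk3sKO. The 3′ end and the 39-base exon both separated the groups in this way. Both values are sums of transcript FPKM that hold Cdc42bpa-204 itself, and no reads were counted over these bases. They mostly restate the rise of that transcript and are not separate evidence for it. In Gsk3sKO replicate 1, though, Cdc42bpa-204 supplied 12.5 of the 28.8 over the 3′ end, and Cdc42bpa-212 most of the rest. By contrast, the 243-base exon 13, which Cdc42bpa-201 skips, was included in 64.7%, 46.7% and 41.9% of the FPKM in Ctrl and 70.7%, 31.6% and 97.6% in Gsk3sKO, with overlap.

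Single Gsk3sKO libraries carried other Cdc42bpa transcripts. Cdc42bpa-208, annotated for nonsense-mediated decay, was at 9.11, 5.75 and 10.3 FPKM in Ctrl and 2.12, 44.2 and 0 FPKM in Gsk3sKO, so it made up 52.2% of the gene in Gsk3sKO replicate 2 alone. Cdc42bpa-212 was at 13.9 FPKM and Cdc42bpa-203 at 8.29 FPKM in Gsk3sKO replicate 1, against at most 2.48 and 1.71 FPKM in the other 5 libraries. Cdc42bpa-201 was at 10.8, 27.4 and 28.8 FPKM in Ctrl and 12.2, 0 and 1.07 FPKM in Gsk3sKO, and the groups overlapped. Cdc42bpa-214 and Cdc42bpa-209 overlapped too, at 0 to 14.0 FPKM and 0 to 4.88 FPKM over all libraries.

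Arhgap26 encodes GRAF1, which switches off small GTPases and takes part in membrane remodeling during endocytosis. Arhgap26-210 was at 0, 0.542 and 1.69 FPKM in Ctrl and 15.5, 17.8 and 28.7 FPKM in Gsk3sKO (log2 fold change 3.71 ± 0.45 SE). Arhgap26-201 was at 22.6, 21.2 and 27.3 FPKM in Ctrl and 9.26, 9.04 and 4.55 FPKM in Gsk3sKO (log2 fold change -1.56 ± 0.29 SE). Both separated the groups, and the Ctrl libraries were close to each other, with shares of Arhgap26-201 of 63.5%, 64.0% and 68.8%.

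Arhgap26-210 is annotated from start to stop codon only, and all of its 2280 bases lie inside Arhgap26-201. What Arhgap26-201 adds is 331 bases of 5′ untranslated end, 5122 bases of 3′ untranslated end and a coding stretch of 165 bases on chromosome 18, whose sequence is not shown. This stretch was included in 88.7%, 89.5% and 84.3% of the FPKM in Ctrl and 33.8%, 31.2% and 12.8% in Gsk3sKO. The FPKM averaged over the 5122 bases was 24.8, 22.7 and 30.0 in Ctrl and 11.3, 11.0 and 6.35 in Gsk3sKO. Summed in this way, the 3′ end of Arhgap26 was lower in every Gsk3sKO library, whereas that of Cdc42bpa was higher. These sums consist mostly of Arhgap26-201 and so follow its fall. Inclusion of the 165-base stretch follows it too, since Arhgap26-201 alone holds that stretch in full. No reads were counted over the 5122 bases or the stretch.

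Of the other Arhgap26 transcripts, Arhgap26-205 overlapped between the groups, at 2.86, 1.94 and 3.40 FPKM in Ctrl and 2.64, 2.09 and 2.28 FPKM in Gsk3sKO. Arhgap26-213, a model with an incomplete end, was at 3.75, 4.90 and 3.31 FPKM in Ctrl and 1.10, 0.536 and 2.62 FPKM in Gsk3sKO. Of the 18 transcripts that the deposited table lists under Arhgap26, GENCODE M21 assigns 7 to other, noncoding genes, 4 to AC133601.1 and 3 to AC110730.1. They are part of the Arhgap26 totals and shares, with a sum of 3.97, 4.06 and 1.79 FPKM in Ctrl and 1.98, 0.13 and 2.09 FPKM in Gsk3sKO, which overlapped. Without them, an alternative chosen after the data were seen, Arhgap26 summed to 31.6, 29.0 and 37.8 FPKM in Ctrl and 29.3, 31.6 and 38.8 FPKM in Gsk3sKO, also with overlap (log2 fold change 0.018). The most abundant of them, a transcript of AC133601.1, was at 3.67, 3.31 and 1.22 FPKM in Ctrl and 1.33, 0.0361 and 0.408 FPKM in Gsk3sKO, with overlap. The 13 others under the name, 6 of these 7 among them, stayed at or below 1.54 FPKM.

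Iscu encodes the scaffold protein on which iron and sulfur are assembled into clusters in mitochondria. Iscu-205 was at 0.957, 0.485 and 0.675 FPKM in Ctrl and 11.8, 21.5 and 35.0 FPKM in Gsk3sKO (log2 fold change 3.69 ± 0.42 SE). It is 489 bases long, is annotated for nonsense-mediated decay and has a start that the annotation marks as incomplete. The protein-coding Iscu-201 was at 46.6, 31.5 and 23.8 FPKM in Ctrl and 24.0, 15.3 and 11.0 FPKM in Gsk3sKO, and its levels overlapped by 1 library, Gsk3sKO replicate 1 against Ctrl replicate 3. Its share did not overlap, at 72.2%, 85.2% and 85.9% in Ctrl and 62.5%, 34.5% and 23.3% in Gsk3sKO.

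The first-exon block of Iscu-205 is also held by Iscu-204. It was included in 1.79%, 4.83% and 5.10% of the FPKM in Ctrl and 34.5%, 65.0% and 76.4% in Gsk3sKO. This inclusion is computed from transcript FPKM, in Gsk3sKO mostly of Iscu-205, and follows its rise. No reads were counted over the block. Iscu-203, whose coding sequence is 627 bases long against 504 in Iscu-201, was at 16.7, 2.16 and 0.407 FPKM in Ctrl and was listed at 0 in all Gsk3sKO libraries. Iscu-204, also annotated for nonsense-mediated decay, was at 0.116, 1.3 and 0.737 FPKM in Ctrl and 1.31, 7.21 and 0.973 FPKM in Gsk3sKO, with overlap. The 343 bases of 3′ untranslated end that Iscu-205 lacks averaged 62.6, 33.5 and 24.2 FPKM in Ctrl and 24.0, 15.4 and 11.0 FPKM in Gsk3sKO. As a sum of transcript FPKM, mostly of Iscu-201, this end was lower in each Gsk3sKO library, by a narrow gap between the nearest libraries.

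Atxn1 encodes ataxin-1, whose polyglutamine expansion causes a spinocerebellar ataxia and which works with the repressor Capicua. Atxn1-201 was at 8.52, 5.77 and 5.47 FPKM in Ctrl and 13.6, 11.2 and 14.0 FPKM in Gsk3sKO (log2 fold change 0.89 ± 0.24 SE). Atxn1-202 was at 4.46, 4.71 and 3.94 FPKM in Ctrl and was listed at 0 in all Gsk3sKO libraries. Atxn1-203 was listed at 0 in Ctrl replicate 1 and in all Gsk3sKO libraries, and at 5.54 and 4.15 FPKM in Ctrl replicates 2 and 3. In Gsk3sKO, Atxn1-201 was therefore the only Atxn1 transcript above 0.

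Atxn1-201 and Atxn1-202 code for the same 2373 bases. Their sum was 13.0, 10.5 and 9.41 FPKM in Ctrl and 13.6, 11.2 and 14.0 FPKM in Gsk3sKO, with overlap, so the level of this coding sequence did not separate the groups. What differs is noncoding. Atxn1-201 has 6674 further bases of 3′ untranslated end and a 125-base exon in the 5′ untranslated part at chr13:45697821-45697945, which was included in 65.6%, 70.6% and 70.9% of the FPKM in Ctrl and 100% in each Gsk3sKO library. The 24 coding bases of Atxn1-203 shown above were included in 0%, 34.6% and 30.6% in Ctrl and 0% in each Gsk3sKO library. Both inclusions are computed from transcript FPKM, without reads counted over the blocks. In Gsk3sKO they follow from Atxn1-202 and Atxn1-203 being listed at 0.

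**Figure D3:**
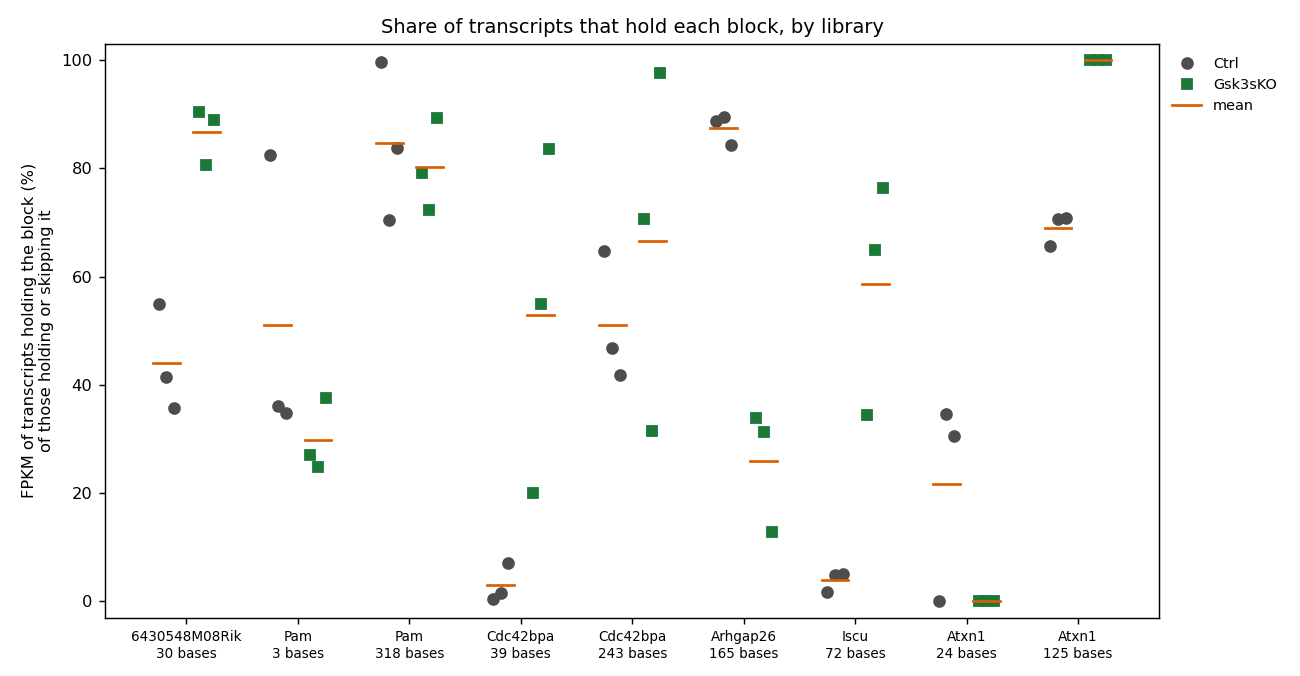
Share of FPKM in transcripts that hold a block, out of those that hold or skip it (y axis, percent), for 9 blocks (x axis, gene and block length). Grey circles are the 3 Ctrl libraries, green squares the 3 Gsk3sKO libraries, in replicate order, and orange lines the means. The groups do not overlap for the 30-base, 39-base, 165-base, 72-base and 125-base blocks. They overlap for the 3-base, 318-base, 243-base and 24-base blocks. The shares are computed from transcript FPKM, and no reads were counted over a block. They follow the transcripts on which the genes were chosen and are not separate evidence.

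The 6 genes were therefore not alike in what their switch involves. The rising and falling transcripts of Atxn1 have the same coding sequence, and those of the other 5 genes differ in coding bases. The rising transcript was the longer of the pair in 6430548M08Rik, Pam, Cdc42bpa and Atxn1 and the shorter in Arhgap26 and Iscu. The falling transcript shares 28.9% of its bases with the rising one in Arhgap26, 43.6% in Iscu and 99.9% to 100% in the other genes. Reads from shared bases can be assigned to either transcript, and how they were divided is an estimate of the authors' software.

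Gene totals moved less than the transcripts when FPKM was summed. The 6430548M08Rik total was 64.7, 66.9 and 77.4 FPKM in Ctrl and 91.9, 97.7 and 81.3 FPKM in Gsk3sKO, the only one without overlap (log2 fold change 0.37 ± 0.14 SE). The log2 fold changes of the others were -0.16 ± 0.12 (SE) for Pam, 0.0047 ± 0.19 (SE) for Cdc42bpa, -0.063 ± 0.16 (SE) for Arhgap26, 0.091 ± 0.28 (SE) for Iscu and -0.13 ± 0.17 (SE) for Atxn1. The Iscu value rested on Ctrl replicates, which put it at 0.42 when Ctrl replicate 1 was left out and at -0.17 when Ctrl replicate 3 was. The values of Cdc42bpa and Arhgap26 lay so near 0 that leaving out single libraries turned their sign, from -0.16 to 0.16 for Cdc42bpa and from -0.18 to 0.0045 for Arhgap26.

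A summed FPKM counts a short and a long transcript alike, whereas the number of fragments grows with length. As an alternative chosen after the data were seen, each FPKM was multiplied by its transcript's length in kilobases before summing, which gives a length-weighted total, in proportion to the fragments assigned. On this scale Arhgap26 was at 204, 188 and 246 in Ctrl and 130, 130 and 123 in Gsk3sKO, with no overlap (log2 fold change -0.73 ± 0.14 SE). Cdc42bpa was at 270, 311 and 341 in Ctrl and 398, 344 and 415 in Gsk3sKO (log2 fold change 0.33 ± 0.14 SE), and Atxn1 at 107, 100 and 88.8 in Ctrl and 143, 118 and 148 in Gsk3sKO (log2 fold change 0.46 ± 0.15 SE), both higher without overlap.

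The length-weighted total of 6430548M08Rik was 244, 290 and 364 in Ctrl and 504, 530 and 444 in Gsk3sKO (log2 fold change 0.73 ± 0.16 SE). Pam and Iscu overlapped, with log2 fold changes of 0.018 ± 0.13 (SE) and -0.37 (standard error 0.28). The scale thus decided whether 3 of the 6 totals separated the groups. The median absolute gap between the log2 fold changes on the 2 scales was 0.041 over 12295 genes and the 95th percentile was 0.358, and the gap was 0.176 in Pam, 0.324 in Cdc42bpa, 0.363 in 6430548M08Rik, 0.465 in Iscu, 0.589 in Atxn1 and 0.665 in Arhgap26. These gaps come from the same values that chose the genes and are given as a description.

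**Figure D4:**
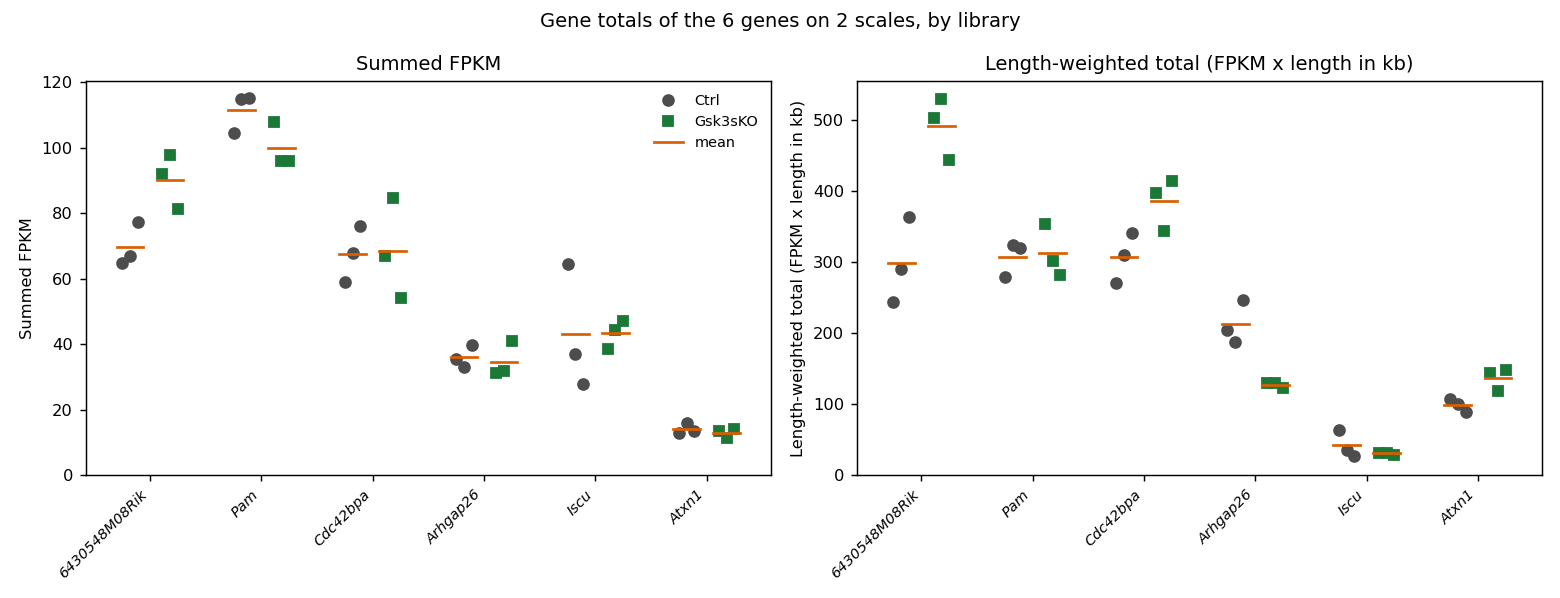
Totals of the 6 genes (x axis) by library, as summed FPKM (left y axis) and as the length-weighted total, which is FPKM times length in kilobases (right y axis). Grey circles are Ctrl, green squares Gsk3sKO and orange lines the means of 3 libraries. On the right, Arhgap26 lies lower and Cdc42bpa and Atxn1 lie higher in all 3 Gsk3sKO libraries, which overlap with Ctrl on the left.

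The same pattern was counted over the whole table. A gene was counted when it had at least 1 transcript 2-fold or more higher and at least 1 transcript 2-fold or more lower in Gsk3sKO on the scale of log2(FPKM + 1), both with a mean FPKM of at least 1 and no overlap between the groups. Of 4658 genes with at least 2 transcripts at that level, 90 (1.93%) met this. Of the 6 genes, 5 met it and Atxn1 did not, because the rise of Atxn1-201 stayed under 2-fold, and nothing is read from this count since the genes were chosen for the pattern. Iscu met it through Iscu-203, since Iscu-201 overlapped. Which of the 6 met it changed with the libraries: without Ctrl replicate 1, Pam and Iscu no longer did and Atxn1 did, and with a mean of at least 5 FPKM Iscu did not. With a 5-fold change in each direction 12 genes met it, 6430548M08Rik and Cdc42bpa among them.

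The 6 genes did not stand at the top of this set. The size of the swap was measured as the smaller of a gene's largest rise and largest fall in mean share, in percentage points. It was 42.4 for Arhgap26, 41.8 for 6430548M08Rik, 41.0 for Iscu, 37.3 for Cdc42bpa and 26.4 for Pam, at places 28, 29, 30, 41 and 60 among the 90 genes, and 31.0 for Atxn1. Its median was 33.2 over the 90 genes and 11.6 over all 4658 genes. Over all 4658 genes, whether or not they met the pattern, the 6 genes took places 126 (Arhgap26) to 614 (Pam). Among the 90 genes, the 5 with the largest value were Fbxo41 at 88.8, Lmtk3 at 83.0, Ankrd6 at 80.5, Map3k7 at 73.8 and Ldha at 67.2, taken over the 6 libraries. In Fbxo41, which encodes a neuronal F-box protein, Fbxo41-202 was at 1.06, 0.177 and 0.111 FPKM in Ctrl and 16.9, 15.8 and 5.30 FPKM in Gsk3sKO, while Fbxo41-203 went from 9.31, 17.3 and 17.6 FPKM to being listed at 0.

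How steady a share was within a group also differed among the genes. The range was taken for the transcript with the largest mean share of its gene over all 6 libraries. Over the 3 Ctrl libraries it was 5.28 percentage points for Arhgap26-201, 6.90 for 6430548M08Rik-201 and 13.7 for Iscu-201. It was 25.1 for Pam-202, 27.6 for Cdc42bpa-202 and 29.6 for Atxn1-201. Over the 3 Gsk3sKO libraries it was 18.4, 10.6, 39.2, 7.02, 19.6 and 0 in the same order. Some of these ranges are narrow because the share lay near a limit. 6430548M08Rik-201 was at 0.353%, 0.142% and 7.04% in Ctrl, where 6430548M08Rik-204 was at 44.7%, 57.1% and 63.2%. Atxn1-201 was at 100% in every Gsk3sKO library. The median over the 4658 genes was 29.4 in Ctrl and 34.2 in Gsk3sKO, and the 6 genes are not compared with it, since their choice favors narrow ranges. Shares of single transcripts thus commonly ranged widely among libraries of 1 group.

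Partner genes, which the choice of the 6 genes did not use, were listed for what they do with 5 of them, and their gene totals were tested. The lists were drawn up with earlier results of these data known. Of 61 partner genes tested, 0 were higher and 2 lower in Gsk3sKO at an unadjusted limma p under 0.05, where 1.35% of 12864 gene totals were higher and 5.25% lower, and 0 had an adjusted p under 0.05, the lowest being 0.68. After each library was rescaled by its median ratio, called gene totals moved from 174 higher and 676 lower to 308 higher and 505 lower, and the partners from 0 higher and 2 lower to 2 higher and 1 lower. The median log2 fold change of the 61 partners was 0.0076, beside -0.061 for all gene totals.

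Both called partners belong to the Iscu list of 16 iron-sulfur cluster genes. Isca2, which acts late in building clusters for mitochondrial enzymes, was at 5.92, 7.14 and 6.96 FPKM in Ctrl and 3.75, 3.69 and 4.41 FPKM in Gsk3sKO (log2 fold change -0.63 ± 0.21 SE, limma unadjusted p = 0.015, adjusted p = 0.68). Fdx1l, a ferredoxin that passes electrons to the scaffold, was at 24.2, 13.3 and 14.2 FPKM in Ctrl and 11.2, 13.0 and 7.67 FPKM in Gsk3sKO (log2 fold change -0.63 ± 0.27 SE, limma unadjusted p = 0.0481, adjusted p = 0.749). Isca2 was lower in every Gsk3sKO library, and so was Fdx1l. Without Ctrl replicate 1 the log2 fold change of Fdx1l was -0.37 (limma unadjusted p = 0.167), and its call was also lost without Gsk3sKO replicate 1 or 3, while that of Isca2 was lost without Ctrl replicate 2 or 3 (limma unadjusted p = 0.0592 and 0.0514). Hspa9, the mitochondrial chaperone that releases clusters from the scaffold and the most abundant gene of the list, was at 121, 119 and 137 FPKM in Ctrl and 145, 141 and 183 FPKM in Gsk3sKO (log2 fold change 0.30 ± 0.15 SE, limma adjusted p = 0.772). The median over the list was -0.12.

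In the other 4 lists no partner was called. Of the 13 tested genes of peptide hormone processing around Pam, the log2 fold changes ran from -0.39 to 0.084, and the most abundant, the granule protein Chgb, was at 851, 646 and 620 FPKM in Ctrl and 619, 703 and 809 FPKM in Gsk3sKO. For the 13 tested genes of MRCK, Cdc42 and related kinase signaling around Cdc42bpa they ran from -0.47 to 0.23, and the actin-severing Cfl1 was at 468, 446 and 444 FPKM in Ctrl and 461, 442 and 372 FPKM in Gsk3sKO. For the 8 tested genes around Arhgap26 they ran from -0.24 to 0.42, with the endocytic GTPase Dnm1 at 590, 529 and 653 FPKM in Ctrl and 665, 638 and 566 FPKM in Gsk3sKO. For the 12 genes around Atxn1 they ran from -0.34 to 0.18, with the 14-3-3 gene Ywhaz at 626, 618 and 637 FPKM in Ctrl and 580, 540 and 578 FPKM in Gsk3sKO. The medians of these 4 lists were -0.044, 0.027, 0.054 and -0.11.

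**Figure D5:**
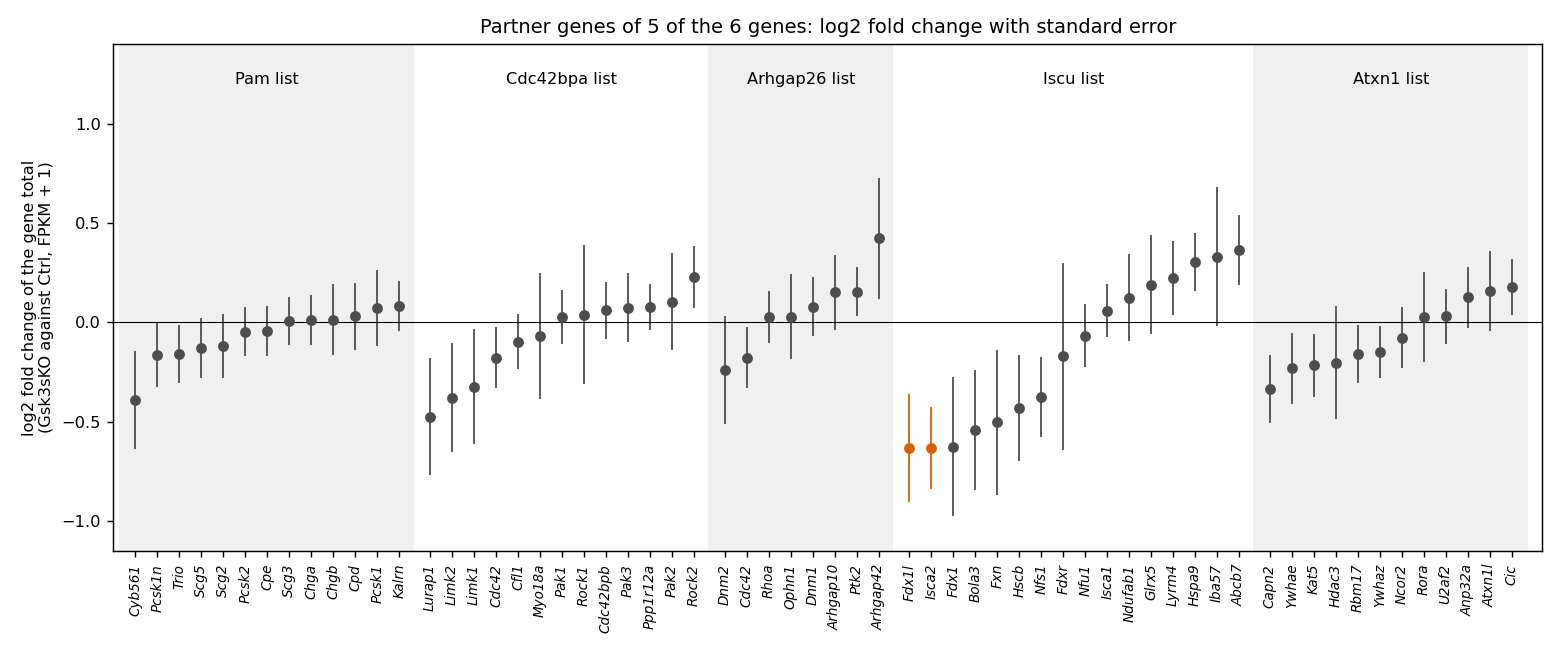
log2 fold change of the gene total on FPKM + 1, Gsk3sKO against Ctrl (y axis), for the tested partner genes of 5 genes (x axis, by list), with bars for 1 standard error. Orange points have an unadjusted limma p under 0.05 and grey points do not. Isca2 and Fdx1l, both in the Iscu list at -0.63, are the orange points.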

How the data were processed

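Ribosome-associated RNA was sequenced in 3 Ctrl and 3 Gsk3sKO libraries. The authors deposited FPKM per transcript and library, made on GRCm38 with HISAT2 2.1.0, SAMtools 1.9 and StringTie 1.3.4d per the submitters' processing notes, with settings not given in the sources used here. Their columns of fold, p and q for the same comparison were not used, and 0 columns of values were left out. The spacing of low values gave depths of about 23.5 to 45.2 M fragments. These depths are rough, because at them only 6.67% to 21.8% of the low values came within 0.01 of a whole number of fragments, and no interval was built on them.

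Libraries were grouped by the submitters' labels. The 6 genes, the partner lists and the markers were chosen with earlier results of these data known. A gene is all rows with 1 gene name. Structures came from GENCODE M21, in which 114237 transcripts were found and 983 were not. A share is the FPKM of a transcript in percent of the summed FPKM of its gene. Differences were fitted with limma 3.58.1 in R 4.3.3 (eBayes with a trend, no covariates, 2-sided) on log2(FPKM + 1), which understates changes of low values, for features whose mean FPKM over 6 libraries reached 1, with Benjamini-Hochberg adjustment over all features, and the fit was tested on simulated data. Python 3.11.15, numpy 2.4.6, pandas 2.3.3 and matplotlib 3.10.9 did the rest.

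Named genes were the 6 genes, Gsk3b, the 5 other genes with the largest swap among those with opposite shifts, called partners and the most abundant partner of each list. Alternatives were a pseudocount of 0.1, no filter, a mean FPKM of at least 5, a 5-fold change, median-ratio rescaling, other denominators of the share, a replicate block and leaving out each library. Same-numbered libraries did not deviate together (r = -0.024, -0.034 and -0.079), so numbers were not taken as pairs.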

Additional observations from a re-analysis of the deposited data

How the results depend on the processing

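Values are FPKM without read counts, so the fragments behind a share, and how reads were divided between overlapping transcripts, are not known beyond the estimate given. The count of transcripts with an unadjusted limma p under 0.05 was 1200, 1917 without a filter and 590 with the filter raised to 5 FPKM. The 90 genes with opposite shifts were 28 with the filter at 5 FPKM and 12 at 5-fold, and 172 to 311 with 1 library left out, where 3 against 2 values overlap less often by construction. The called partners were 2, and 1 (without Ctrl replicate 2) to 5 (without Gsk3sKO replicate 1) with 1 library left out, and the cause was not tested. With the replicate block, although the numbers do not pair the libraries, 1103 transcripts, 825 gene totals and 2 partners were called, against 1200, 850 and 2 without it.

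Every share change of a rising or falling transcript kept its direction under each alternative. As a share of the length-weighted total (FPKM times length), chosen after seeing the data, the change in percentage points was -57.5 for 6430548M08Rik-204, -39.7 for Pam-201, 36.6 for Arhgap26-210, 29.9 for Atxn1-201 and -16.7 for Atxn1-202. On that scale the log2 change of the gene total was 0.73 for 6430548M08Rik, 0.018 for Pam, 0.33 for Cdc42bpa, -0.73 for Arhgap26, -0.37 for Iscu and 0.46 for Atxn1, so Pam, Iscu and Atxn1 changed sign. Median-ratio rescaling put Arhgap26, near 0 to begin with, at 0.00053, and leaving out transcripts of other genes put it at 0.018. Over the 213 values recomputed, 190 stayed within the spread or within 1.5 times the reported count, and 23 did not.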
